A study of Drosophila melanogaster with 9 samples.

Results

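Tubulin isotypes were followed in hand-dissected testes of Drosophila melanogaster from 3 genotypes. The members were the probe sets whose single gene symbol was one of 9 alpha, beta and gamma tubulin genes. Of these genes 7 had such a probe set, 10 probe sets in all among 13966 on the arrays, and alphaTub84B and gammaTub23C were not analysed here. The testes came from males collected within a day of eclosion and reared at 25 °C, and each genotype was measured on 3 Affymetrix arrays. Control males carried red[1] and e[1]. The can males carried w and can[3] on the same red[1] e[1] chromosome. As w is not named for control, w and can[3] cannot be told apart in can against control. The third group carried comr[z1340], cn[1] and bw[1], so its strain background differed from that of control and from that of can. Background and mutation cannot be told apart in comparisons of this group with either. Title and genotype of that group name comr, while its source name and description name aly[5], an allele of another gene. Its arrays are called comr-labelled throughout.

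Microtubules are hollow filaments of alpha and beta tubulin dimers, and gamma tubulin in ring complexes starts their growth at centrosomes. Flies use different isotypes in different cells. In the male germline the stem cells and dividing spermatogonia use the general isotype betaTub56D, and betaTub85D, the testis beta tubulin, takes over in spermatocytes and builds the meiotic spindle, the tail axoneme and the other spermatid microtubules. Mutants of comr, aly and can stop in the spermatocyte stage, so their testes hold no spermatids. In whole testes fewer cells of a type and less RNA per cell cannot be told apart.

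Each value is a probe set's array signal on a linear scale, and changes are differences of log2(signal + 16) with the standard error (SE) of limma. A probe set was called when its adjusted p was under 0.05 and the change was at least 2-fold, and 9775 probe sets were tested. Signals up to 20.3, the brightest value among 23 control probe sets without a target in fly RNA, are said to be at or under the floor. Arrays of 1 group correlated at 0.972 to 0.987 and arrays of different groups at 0.408 to 0.836. Of 14 testis germline markers 13 lay above the floor on all control arrays, and the spermatid genes dj and Mst77F lay at or under it on all comr-labelled arrays. The summed signal of 10 accessory gland genes ran from 607 to 4088 in control, 45.5 to 1728 in comr-labelled arrays and 108 to 3550 in can, although these glands were removed on dissection. For GAPDH the 3' probe set over the 5' one, which rises as RNA breaks down, gave 2.59 ± 0.294 (SD, n = 3), 5.99 ± 0.635 and 5.52 ± 1.33 in control, comr-labelled and can, while for actin it gave 2.62 ± 0.0898, 2.43 ± 0.163 and 2.57 ± 0.259 and for eIF-4a 5.22 ± 0.292, 6.76 ± 0.866 and 3.83 ± 0.490. Their part in the results was not tested, except that the limma changes, the counts of calls and the lists were repeated without the array of each group with most accessory gland signal. Gland signal remained unequal on the arrays kept: Acp95EF gave 1459.1 and 558.1 in control, 25.3 and 2.8 in comr-labelled arrays and 1775.8 and 28.8 in can. The labels do not say that replicates came from separate dissections, so p-values rest on the array-to-array spread alone, which may be technical. The comparisons of the 2 mutants with control share the control arrays.

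The testis beta tubulin betaTub85D and the widely used alpha tubulin alphaTub84D fell in both mutants, while the general beta tubulin betaTub56D passed the test in neither. Of the 9 member probe sets tested, 3 were called lower in comr-labelled arrays, where 16.7% of all probe sets were, and 3 in can, against 13.1% of all. In both comparisons these were the probe set of betaTub85D and both of alphaTub84D, so 2 of 7 genes fell. None was called higher, against 28.9% and 20.7% of all probe sets. These counts depend on the scaling: centred on ribosomal protein genes 7 of the 9 were called lower in each mutant, and centred on spiked controls 1 was called higher in comr-labelled arrays, the i probe set of betaTub60D (1.07, adjusted p = 2.56e-06). With no minimum fold 5 of the 9 were lower and 2 higher at adjusted p under 0.05 in each comparison, against 28.8% lower and 50.5% higher of all probe sets in comr-labelled arrays and 23.9% and 47.2% in can. Likewise 5 lay below every control array and 2 above in each, where 29.9% and 50.9% of all did so in comr-labelled arrays and 24.7% and 48.0% in can. The median change of the 9 was -0.36 in comr-labelled arrays and -0.37 in can, against 0.35 and 0.29 over all tested probe sets. Between the mutants 1 member probe set differed by the same test, 1 of the 2 of alphaTub84D, which was lower in comr-labelled arrays (10.3% of all probe sets were, and 4.54% higher). With no minimum fold 3 were lower and 0 higher, against 24.1% and 25.1% of all, and 3 lay below every can array and 0 above, against 28.8% and 30.3%.

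**Figure D1:**
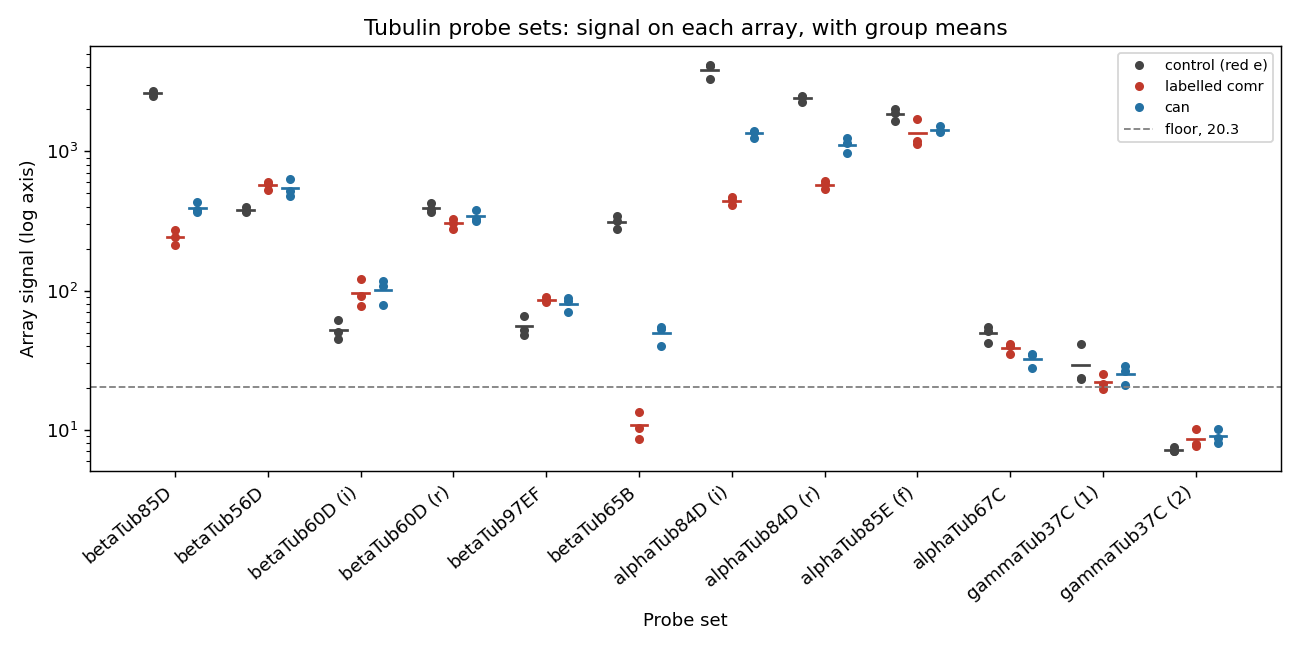
Signal of each tubulin probe set (x axis) on each of the 9 arrays (y axis, log scale), with a point per array, a bar at each group mean and a dashed line at the floor of 20.3. The betaTub85D and alphaTub84D points of both mutants lie below all control points, while those of betaTub56D lie above them.

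The betaTub85D probe set (CG9359, chromosome arm 3R) gave signals of 2714.1, 2490.8 and 2632.6 on the control arrays. The comr-labelled arrays gave 241.6, 273.3 and 212.4. The can arrays gave 365.1, 377.0 and 431.0. The 3 groups did not overlap, with control highest and the comr-labelled arrays lowest. Arrays comr-labelled kept a mean of 9.28% of the control signal, which is a log2 change of -3.35 (SE 0.094, limma adjusted p = 7.29e-12). In can the mean was 15% of control (log2 change -2.69, SE 0.094, adjusted p = 2.17e-10). The signal thus stayed well above the floor on every mutant array. In comr-labelled arrays 632 of the 9775 tested probe sets fell further than betaTub85D, 6.47%, and in can 265 did, 2.71%. The comr-labelled arrays lay 1.58-fold below can (log2 difference -0.66, SE 0.094, adjusted p = 9.46e-05), short of the 2-fold threshold. Without the array of each group with most accessory gland signal the changes were -3.33 and -2.74.

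The general beta tubulin betaTub56D (CG9277, chromosome arm 2R) gave 372.8, 364.9 and 397.3 in control, 605.7, 579.8 and 528.7 in comr-labelled arrays and 633.6, 516.4 and 479.6 in can. All mutant arrays lay above all control arrays, and the mutants overlapped each other. The mean was 151% of control in comr-labelled arrays (log2 change 0.57, SE 0.099, adjusted p = 1.73e-04) and 144% in can (log2 change 0.50, SE 0.099, adjusted p = 6.74e-04), both short of 2-fold. Arrays above all control arrays were common: 50.9% of tested probe sets lay so in comr-labelled arrays and 48.0% in can. The sign of this change depends on the scaling, and with the arrays centred on 24 ribosomal protein probe sets it was -0.44 and -0.73. Between the mutants the change was 0.08, with a 95% interval of -0.14 to 0.29. Beside this, the summed signal of 7 markers of early germ cells, which use this isotype, was 276 to 289 in control, 888 to 903 in comr-labelled arrays and 514 to 624 in can, with osk at or under the floor in all groups and bam in control. One of them, bgcn, gave 104.3 to 115.2 in can against 114.5 to 131.8 in control, and with ribosomal protein centring the median change of the 6 that were tested was 0.40 and -0.0061. Their part in the betaTub56D values was not tested.

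The somatic isotype betaTub60D (CG3401, chromosome arm 2R), used in mesodermal tissues, had 2 probe sets that went opposite ways. Affymetrix marks one with the suffix i, for fewer probes than its design asks for, and the other with r, for probes that break its selection rules. The i probe set gave 61.9, 45.2 and 50.4 in control, 121.2, 77.2 and 92.1 in comr-labelled arrays and 107.7, 79.0 and 117.1 in can, so every mutant array lay above control. Its log2 changes were 0.71 (SE 0.17, adjusted p = 0.0019) and 0.77 (SE 0.17, adjusted p = 0.00127). The r probe set gave 364.6, 427.6 and 387.0 in control, 329.4, 305.5 and 275.8 in comr-labelled arrays and 381.7, 317.6 and 328.0 in can. Arrays comr-labelled lay below control here, and can overlapped control. The changes were -0.36 (SE 0.096, adjusted p = 0.00467) and -0.19 (SE 0.096, adjusted p = 0.0935). None of these reached 2-fold, and the 2 probe sets give no common direction for the gene. Summed signals of 9 muscle genes were 1789 to 1927 in control, 1629 to 1930 in comr-labelled arrays and 1460 to 1756 in can, with sls at or under the floor in comr-labelled arrays and TpnC73F in control. A large part of these sums was Act87E, at 1070.9 to 1123.6, 582.8 to 650.1 and 505.4 to 705.3. Its probe set has the suffix f, for probes shared within a gene family. The median change of the 9 was 0.53 in comr-labelled arrays and 0.17 in can, against 0.35 and 0.29 over all tested probe sets. With ribosomal protein centring it was -0.48 and -1.06. Those of 6 somatic cyst and hub cell genes were 188 to 203, 201 to 212 and 245 to 253, with tj and upd1 at or under the floor in all groups. Their part was not tested.

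Of the beta tubulins that were not among the members, betaTub65B and betaTub97EF had a probe set. The betaTub65B probe set (CG32396, chromosome arm 3L) gave 315.3, 274.9 and 342.4 in control, 10.4, 8.6 and 13.5 in comr-labelled arrays and 40.3, 54.8 and 53.0 in can. Every comr-labelled array was under the floor, so the signal was at least 15.3-fold lower there, taking the geometric mean of control over the floor (adjusted p = 8.03e-11). In can it fell by 2.32 on the log2 scale (SE 0.13, adjusted p = 9.47e-09). The comr-labelled arrays were at least 2.41-fold below can (adjusted p = 5.34e-06), although with an offset of 64 the fitted difference was -0.597, short of 2-fold. For betaTub97EF (CG4869, chromosome arm 3R) the signal was 55.4 ± 9.60 in control, 86.2 ± 4.08 in comr-labelled arrays and 80.5 ± 9.61 in can, and its changes of 0.53 and 0.44 were short of 2-fold.

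Among the alpha tubulins alphaTub84D (CG2512, chromosome arm 3R), whose protein is nearly identical to that of the general isotype alphaTub84B, fell on both of its probe sets. The i probe set gave 4151.4, 3316.1 and 4084.7 in control, 412.2, 468.6 and 448.0 in comr-labelled arrays and 1383.6, 1255.9 and 1390.9 in can. The r probe set gave 2252.7, 2497.9 and 2440.9 in control, 535.1, 608.0 and 585.4 in comr-labelled arrays and 1142.9, 971.4 and 1241.6 in can. On both the 3 groups did not overlap and stood in the order control, can, comr-labelled. The i probe set kept 11.5% of its control signal in comr-labelled arrays (log2 change -3.07, SE 0.091, adjusted p = 1.17e-11) and 34.9% in can (log2 change -1.50, SE 0.091, adjusted p = 1.70e-08). The r probe set kept 24% (log2 change -2.03, SE 0.090, adjusted p = 5.54e-10) and 46.7% (log2 change -1.09, SE 0.090, adjusted p = 2.94e-07). The fall of the r probe set in can ended under 2-fold with quantile normalisation (-0.79), with centring on spiked controls (-0.98) and without can replicate 2 (-0.998). Arrays comr-labelled differed from can by -1.57 on the log2 scale for the i probe set (SE 0.091, adjusted p = 2.62e-08) and by -0.93 for the r probe set (SE 0.090, adjusted p = 3.24e-06), the second short of 2-fold. Probe sequences were not analysed here, so either probe set may also read alphaTub84B.

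The alphaTub85E probe set (CG9476, chromosome arm 3R) carries the suffix f, which Affymetrix gives where probes are shared within a gene family. It gave 1892.4, 1664.2 and 2010.2 in control, 1134.5, 1714.7 and 1190.2 in comr-labelled arrays and 1508.2, 1380.7 and 1408.1 in can. Replicate 2 of the comr-labelled arrays lay within the control range, while the can arrays all lay below it. The log2 changes were -0.48 (SE 0.13, adjusted p = 0.00513) and -0.37 (SE 0.13, adjusted p = 0.0249), short of 2-fold. With the array of each group with most accessory gland signal left out, the adjusted p-values were 0.0833 and 0.104.

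The maternal isotypes, which supply eggs and early embryos, gave dim signals. For alphaTub67C (CG8308, chromosome arm 3L) these were 54.9, 51.4 and 41.8 in control, 41.7, 40 and 34.9 in comr-labelled arrays and 35.1, 27.8 and 34.3 in can. Both mutants lay just below control, by log2 changes of -0.25 (SE 0.13, adjusted p = 0.0954) and -0.43 (SE 0.13, adjusted p = 0.00992). For gammaTub37C (CG17566, chromosome arm 2L), the maternal gamma tubulin, the brighter probe set gave 23.6, 41.7 and 23.1, then 25.3, 21.5 and 19.6, then 20.9, 28.6 and 26.3 in the same order of groups. The groups overlapped, and the changes were -0.23 (95% interval -0.60 to 0.14) and -0.12 (-0.49 to 0.25). The other gammaTub37C probe set lay between 7.0 and 10.2, under the floor on all 9 arrays, and was too dim to be tested.

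**Figure D2:**
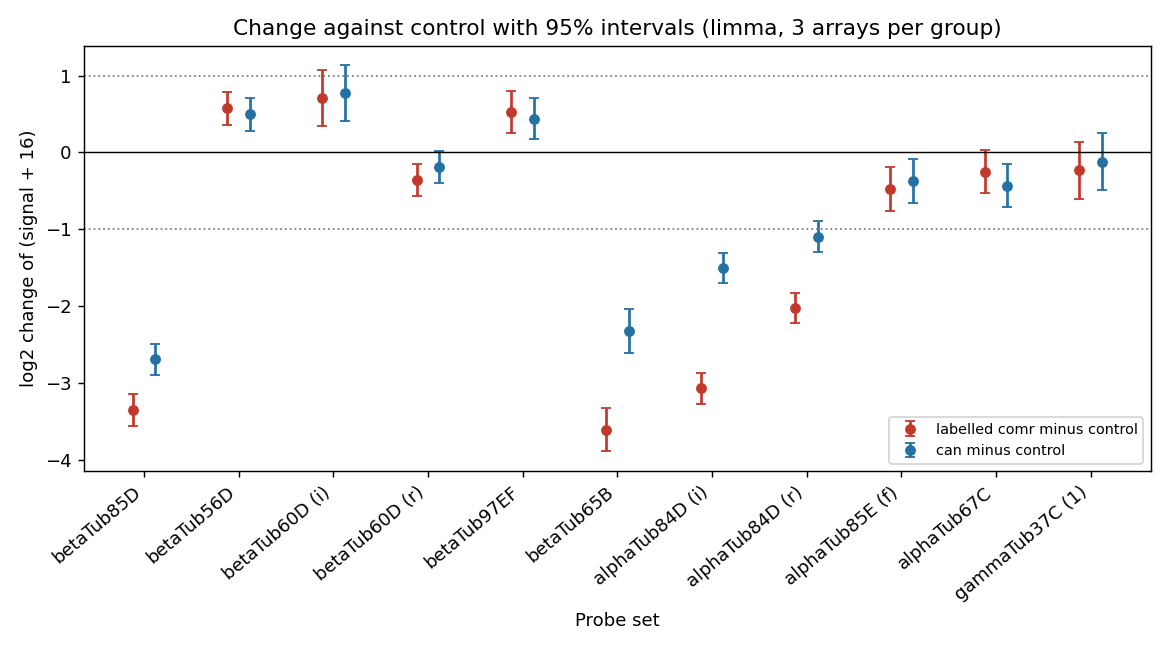
Change of log2(signal + 16) against control (y axis) for the tested tubulin probe sets (x axis) in comr-labelled arrays and in can, with 95% intervals from limma over 3 arrays per group and dotted lines at 2-fold. For betaTub85D, betaTub65B and alphaTub84D the fitted changes lie below the lower dotted line, from -1.09 to -3.61, and all others lie between the lines.

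Whether the testis isotype moved apart from the others was tested within arrays, where a common scaling of an array cancels but for the offset. The log2(signal + 16) of another probe set was subtracted from that of betaTub85D on each array, and the result compared between genotypes by an exact permutation test. Its height depends on both sets of probes, and only its change between genotypes is read. Against betaTub56D it was 2.74 ± 0.0678 (SD, n = 3) in control, -1.19 ± 0.127 in comr-labelled arrays and -0.45 ± 0.310 in can, with no overlap between the 3 groups. It changed by -3.93 in comr-labelled arrays and by -3.19 in can. Over all assignments of the 9 arrays to 3 groups of 3 the exact p was 0.00357, the smallest this design allows, and 0.00571 after Benjamini-Hochberg adjustment over 8 pairs. A single contrast of 3 with 3 arrays gives an exact permutation p of 0.1 at best, and both changes gave that value.

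The same held for the other beta isotypes with little change of their own. Relative to betaTub97EF the changes were -3.88 and -3.13 (exact p over 3 genotypes 0.00357, adjusted 0.00571). Relative to the betaTub60D probe sets they were -4.06 and -3.46 for i (exact p 0.00714, adjusted 0.00816) and -2.995 and -2.50 for r (exact p 0.00357, adjusted 0.00571). Against betaTub65B, which fell too, the differences were small and of opposite sign, 0.25 in comr-labelled arrays and -0.37 in can (exact p 0.0143, adjusted 0.0143). That result rests on the scale, since betaTub65B was under the floor in comr-labelled arrays. The change there ran from -0.81 to 1.30 over the alternatives. With quantile normalisation the exact p was 0.211. Without control replicate 1 it was 0.0607, and without can replicate 2 it was 0.0964.

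Pairs with alpha tubulins were added after their values had been seen. Relative to the i probe set of alphaTub84D betaTub85D changed by -0.28 in comr-labelled arrays and by -1.19 in can (exact p 0.00357, adjusted 0.00571). Relative to the r probe set it changed by -1.32 and -1.60 (exact p 0.00714, adjusted 0.00816), and relative to alphaTub85E by -2.87 and -2.33 (exact p 0.00357, adjusted 0.00571). By these values the fall of betaTub85D exceeded that of alphaTub84D on both of its probe sets and in both mutants. The amount differed between the 2 probe sets and was smallest for the i probe set in comr-labelled arrays. The exact p over 3 genotypes does not test a single mutant against control. Each such contrast gave an exact permutation p of 0.1, the smallest possible with 3 arrays against 3. Alternatives in processing were not run for the pairs with alpha tubulins.

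**Figure D3:**
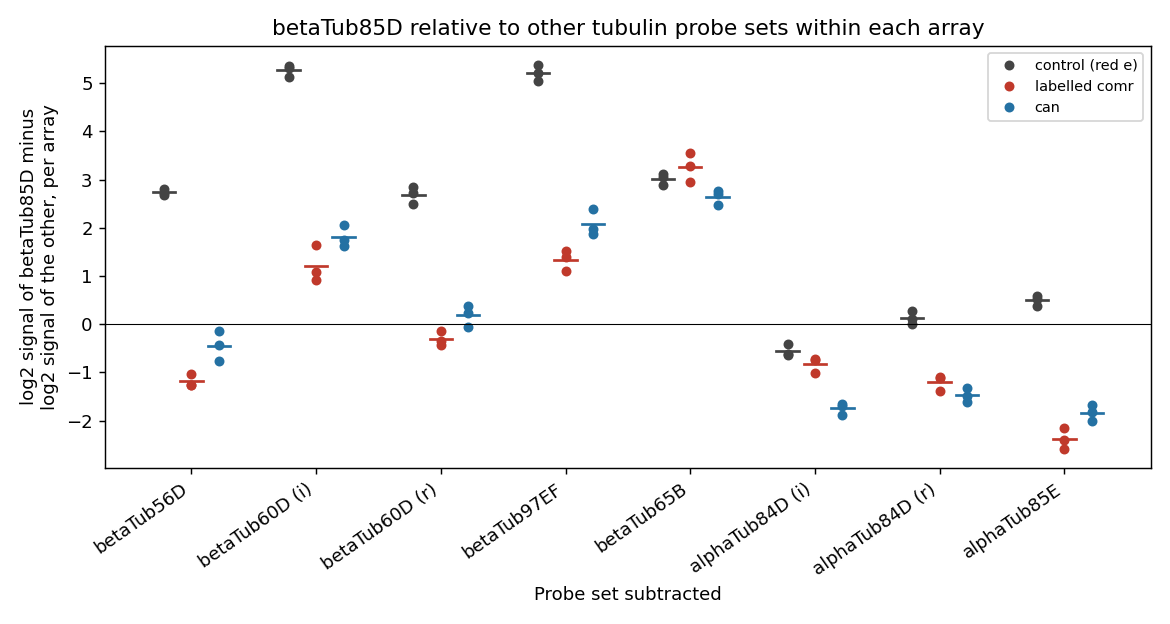
The log2 signal of betaTub85D minus that of another tubulin probe set (x axis) on each array (y axis), with a point per array and bars at the 3 group means. Against betaTub56D the control arrays lie at 2.68 to 2.81 and all mutant arrays below 0, while against betaTub65B the groups lie close together.

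By the distance between the changes in both mutants, the tested genes most like betaTub85D were Cp15, CG31244, PpY-55A, Cyp312a1 and capu, at 0.0437 to 0.1 on the log2 scale. In all, 77 other probe sets lay within 0.5. PpY-55A, a testis protein phosphatase, gave 230 ± 15.8 in control, 8.53 ± 4.24 in comr-labelled arrays and 20.9 ± 3.63 in can. The formin gene capu, which acts on the actin cytoskeleton, was the only one of the 5 with a mean above the floor in both mutants by more than 2-fold, at 709 ± 44.4, 51.4 ± 5.88 and 101 ± 8.78. The others lay near or under the floor there, where the offset compresses a fold change. Most like betaTub56D were Cyt-c1, CG8097, CG2608, IPIP and CG9776, and 1971 other probe sets lay within 0.5 of it. The pattern of betaTub56D was thus shared by a large part of the array.

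The genes that fold, nucleate, sort and modify tubulin were counted in lists chosen with earlier results of these data known, with 1 probe set per gene. Each count reads against the shares of all probe sets given above, 28.9% called higher and 16.7% lower in comr-labelled arrays and 20.7% and 13.1% in can. Of 19 tested genes for tubulin folding 15 rose in comr-labelled arrays and 13 in can, and none was called lower (medians 1.37 and 1.19, against 0.35 and 0.29 over all probe sets). Named by size of change, CCT5, a subunit of the chaperonin that folds actin and tubulin, rose from 156 ± 10.8 to 589 ± 34.4 and 670 ± 55.5. The prefoldin subunit Pfdn2 and the tubulin cofactor Tbcd rose in comr-labelled arrays by 1.73 (SE 0.16) and 1.72 (SE 0.15), and CCT8 and CCT1 rose in can by 1.85 (SE 0.088) and 1.84 (SE 0.10). Singled out after their values were seen, Tbcb and the CCT2 probe set used in the count set the mutants apart. Tbcb, a cofactor that handles alpha tubulin, was at 148 ± 7.80 in control, 502 ± 11.4 in comr-labelled arrays and 105 ± 14.7 in can. CCT2 had 2 probe sets, and in comr-labelled arrays one rose by 1.28 while the other, used in the count, changed by -0.54. In can both were called higher, by 1.65 and 1.18. With ribosomal protein centring no gene of this list was called higher in either mutant, and over the 5 scalings the count went from 0 to 16 and from 0 to 13.

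Gamma tubulin ring subunits divided by kind. Of 6 general subunits 5 rose in each mutant, where 28.9% and 20.7% of all probe sets did (medians 1.36 and 1.25, against 0.35 and 0.29). Grip71, which links rings to the spindle, rose by 1.84 (SE 0.13) in comr-labelled arrays, from 32.4 ± 4.14 to 158 ± 21.9. Grip91 rose by 1.55 (SE 0.14) there and by 1.42 (SE 0.14) in can, and Grip84 by 1.42 (SE 0.076) and 1.67 (SE 0.076). Grip163 was at least 3.2-fold higher in can, with control under the floor. Both measured testis subunits, which form rings in spermatids, fell. The t-Grip84 signal was 184 ± 24.1 in control and was at least 9.04-fold lower in comr-labelled arrays, at 46.8 ± 8.96 in can (log2 change -1.68, SE 0.14). The t-Grip91 signal was 109 ± 15.9 in control and at least 5.31-fold lower in each mutant. The falls of both held in all 5 scalings, while with ribosomal protein centring no general subunit was called higher.

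Of 19 tested microtubule-binding genes 8 rose and 1 fell in comr-labelled arrays, and 5 rose and 1 fell in can (medians 0.87 and 0.70). The 5 rises in can are near the 20.7% of all probe sets called higher there. The genes with the largest rises encode augmin, which recruits gamma tubulin rings to spindle microtubules: dgt5, at least 8-fold higher in comr-labelled arrays, dgt3 (log2 change 2.41, SE 0.13, and 2.15, SE 0.13, in can), dgt6 in comr-labelled arrays (1.47, SE 0.15) and msd1 in can (1.46, SE 0.087). The probe set of tau, a microtubule stabiliser, that was used in the count fell by 1.10 (SE 0.17) in comr-labelled arrays and by 1.25 (SE 0.17) in can, but its other probe set gave changes of 0.34 and 0.41. Of 9 centriole genes 5 rose in comr-labelled arrays and 3 in can, against 28.9% and 20.7% of all probe sets, and none was called lower. SAK, the kinase that starts centriole duplication, had a change of -0.90 in can (adjusted p = 2.38e-05), short of 2-fold, and with array median centring 1 gene of the list was called lower there. Sas-4 was at least 4.24-fold higher in comr-labelled arrays, asl rose there by 1.33 (SE 0.16), and ana3 rose by 1.91 (SE 0.094) there and by 2.997 (SE 0.094) in can. In can Sas-6 rose by 1.00 (SE 0.17) and spd-2 by 1.29 (SE 0.089), while a second spd-2 probe set changed by -0.60. Counts of rises went from 2 to 11 and 0 to 8 over the 5 scalings for microtubule-binding genes, and from 0 to 8 and 1 to 3 for centriole genes.

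**Figure D4:**
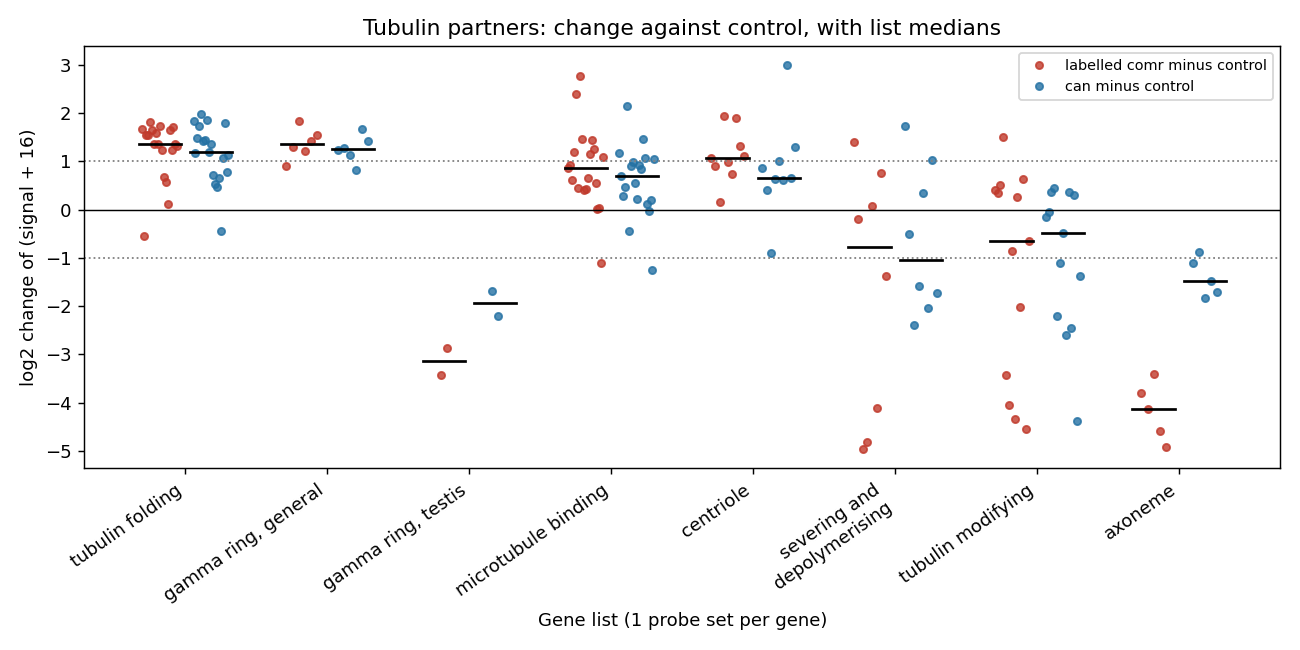
Change of log2(signal + 16) against control (y axis) for each tested gene of 8 lists (x axis) in comr-labelled arrays and in can, with a bar at each list median and dotted lines at 2-fold. The fitted changes of the general gamma ring genes lie at 0.83 to 1.84 and those of the testis ones at -3.44 to -1.68.

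Genes that cut, shorten or modify microtubules included large falls. Of 8 severing and depolymerising genes 4 fell and 1 rose in comr-labelled arrays, and 4 fell and 2 rose in can, against 16.7% and 13.1% of all probe sets called lower and 28.9% and 20.7% higher. With ribosomal protein centring none of them was called higher. The katanin gene Kat60 rose in both, by 1.404 (SE 0.10) and 1.73 (SE 0.10), and the spastin gene spas in can by 1.04 (SE 0.10). The kinesins Klp59C and Klp59D, of a family that takes tubulin off microtubule ends, were at least 28.4-fold and 30.1-fold lower in comr-labelled arrays. In can Klp59C fell by 2.39 (SE 0.12). The katanin-like gene kat-60L1 went from 1126 ± 63.5 to 50.1 ± 6.93 and 263 ± 26, and stai, the stathmin that binds free tubulin, fell by 1.73 (SE 0.15) in can. Of 13 tested tubulin-modifying genes 5 fell and 1 rose in comr-labelled arrays, and 6 fell in can, against 16.7% and 13.1% of all probe sets called lower. Over the 5 scalings 5 to 7 and 5 to 9 were called lower. Those that fell in either belong to the tubulin tyrosine ligase-like family, which adds amino acids to tubulin tails. TTLL6A was at least 28.2-fold lower in both mutants, TTLL3B fell by 4.35 (SE 0.23) and 2.60 (SE 0.23), TTLL1B was at least 21.4-fold lower in comr-labelled arrays, and TTLL4B fell by 2.46 (SE 0.16) in can. TTLL15, of the same family, was the gene that rose, at least 3.31-fold in comr-labelled arrays, and it was not called with ribosomal protein centring or an offset of 64.

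All 5 tested genes of the axoneme list fell in comr-labelled arrays and 4 fell in can (medians -4.13 and -1.49), where 16.7% and 13.1% of all probe sets fell. Over the 5 scalings the count stayed at 5 in comr-labelled arrays and went from 3 to 5 in can. They included Tektin-C, a filament protein of the axoneme, at least 21.8-fold lower in comr-labelled arrays and changed by -1.49 (SE 0.12) in can, and the radial spoke gene Rsph4a, with a log2 change of -4.13 (SE 0.21) in comr-labelled arrays. Tektin-A fell by 1.82 (SE 0.14) in can. The list also held mil, of the nucleosome assembly protein family, which fell by 4.92 (SE 0.11) and 1.72 (SE 0.11). Between the mutants all 5 were called lower in comr-labelled arrays, against 10.3% of all probe sets, with fitted log2 differences of -1.58 to -3.24, where betaTub85D differed by -0.66 and was not called. With an offset of 64 the axoneme list had 4 such calls. The general gamma ring list had 0 of 6 calls between the mutants. The folding list had 1 in each direction, Tbcb higher and CCT2 lower, the latter by the probe set used in the count.

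The falls of betaTub85D and of the i probe set of alphaTub84D were called in both mutants under each of the 5 scalings, as the plot of scalings shows. For betaTub85D the change ran from -4.36 to -2.99 in comr-labelled arrays and from -3.92 to -2.42 in can. The isotypes without a call moved with the scaling, and with centring on ribosomal protein genes alphaTub67C, alphaTub85E, gammaTub37C and the r probe set of betaTub60D passed the test as lower in both mutants, at -1.24 to -1.66. That centring also placed betaTub56D, betaTub97EF and the i probe set of betaTub60D below control in both mutants.

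**Figure D5:**
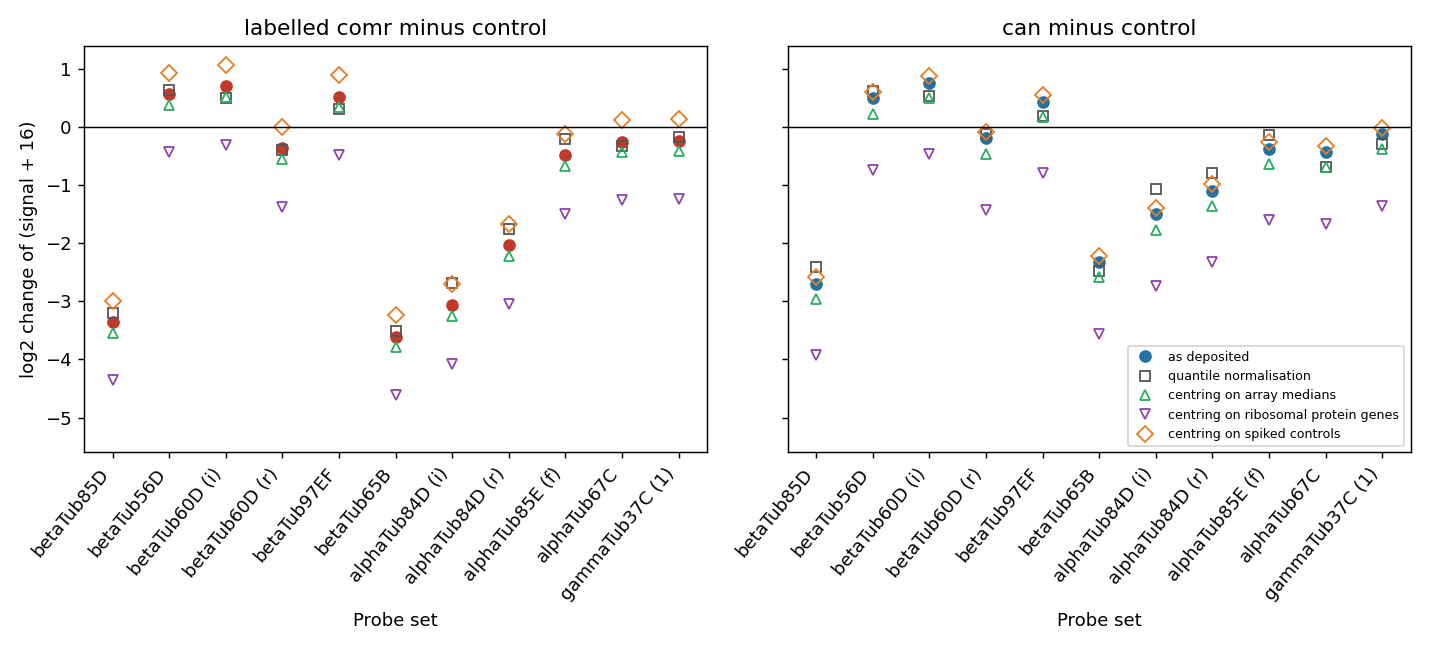
Change of log2(signal + 16) against control (y axis) for each tested tubulin probe set (x axis) under 5 scalings of the arrays, for comr-labelled arrays (left) and can (right). The changes of betaTub85D stay at or below -2.42 in each scaling, while betaTub56D lies above 0 in 4 scalings and below 0 with ribosomal protein centring.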

How the data were processed

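The authors deposited 1 table of probe set intensity on a linear scale, with GCOS 1.4 as the software, per the submitters' processing notes. Signal algorithm, background step and filters were not given in the sources used here. On each array the mean without the lowest and highest 2% was 100.01, so arrays had been scaled to a common level, and none was scaled again. Gene symbols came from the platform's annotation, updated through a gene table of assembly Release 6; 12443 probe sets had 1 symbol, 327 several and 1196 none, and 44 controls were left out. Probe sets with the lowest 30% of means (up to 15.1) were not tested. Tests used limma 3.58.1 in R 4.3.3 on log2(signal + 16) with 1 coefficient per genotype over 9 arrays, an intensity trend, two-sided p and Benjamini-Hochberg adjustment over 9775 probe sets. "At least" folds divide the brighter group's geometric mean by the floor where all dim arrays lay at or under it. The number of arrays limits the precision.

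Members, lists and tests were chosen with earlier results of these data known. All members were named, with up to 3 called genes per list and comparison with control, those of largest change with no overlap between groups, and the 5 genes nearest to betaTub85D and to betaTub56D. Kat60, spas, TTLL15, TTLL6B, SAK, CCT2 and Tbcb were chosen after their values were seen. Same-numbered arrays correlated at -0.14 to 0.19 in their deviations from group means and were not paired. Scripts were tested on simulated data. Alternatives changed offset, filter, scaling, trend, samples in the fit, block, minimum fold and single arrays. Leaving out the array of each group with most accessory gland signal was added after seeing the data.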

Additional observations from a re-analysis of the deposited data

How the results depend on the processing

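The numbers of probe sets called, 4460 in comr-labelled arrays against control, 3304 in can and 1447 between the mutants, moved by over 1.5 times with an offset of 64 (2739, 1922 and 653) and with no minimum fold (7760, 6948 and 4810). Scaling moved the share of calls that were higher from 63.4%, 61.4% and 30.7% to 12.7%, 2.60% and 48.9% with ribosomal protein centring and to 74.5%, 67.2% and 51.5% with spiked controls. That centring moved the median of all probe sets to -0.66 and -0.94 against control, so falls read against it are smaller. The replicate block (4461, 3305 and 1450 calls) changed no call of a tubulin.

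The falls of betaTub85D, betaTub65B and the alphaTub84D i probe set against control kept their direction and call in all alternatives. Of the 9 member probe sets 7 were called lower in each mutant with ribosomal protein centring, against 3, and 1 was called higher in comr-labelled arrays with spiked controls. The call of betaTub65B between the mutants was lost with an offset of 64 (-0.597). Signs turned for tubulins without a call. Against control, ribosomal protein centring gave -0.44 and -0.73 for betaTub56D, -0.30 and -0.46 for betaTub60D (i) and -0.48 and -0.79 for betaTub97EF. Spiked controls gave 0.12, 0.0093 and 0.13 for alphaTub67C, betaTub60D (r) and gammaTub37C in comr-labelled arrays. Between the mutants, ribosomal protein and spiked centring gave 0.11 and 0.14 for alphaTub85E, 0.16 and 0.19 for betaTub60D (i), 0.056 and 0.087 for betaTub60D (r) and 0.11 and 0.14 for gammaTub37C. There quantile normalisation gave 0.12 for gammaTub37C and array medians 0.019 for betaTub60D (i). Leaving out the array of each group with most accessory gland signal gave -0.046 for betaTub56D between the mutants. Leaving out 1 array at a time gave -0.22 to 0.064 for gammaTub37C in can against control, and between the mutants -0.21 to 0.069 for betaTub60D (i) and -0.00386 to 0.19 for betaTub56D. For betaTub85D against betaTub65B the change in comr-labelled arrays ran from -0.81, with an offset of 64, to 1.30 over the alternatives. In can quantile normalisation gave 0.061, with an exact p over 3 genotypes of 0.211, and that p was 0.00357 to 0.0964 without 1 array. The cause was not tested.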

Other observations

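The mean signal of betaTub65B was 15.9% of control in can, where betaTub85D kept 15%, while every comr-labelled array lay under the floor for betaTub65B and betaTub85D kept 9.28% there. Relative to can, the comr-labelled arrays were at least 2.27-fold lower for t-Grip84, at least 9.54-fold for Klp59D, at least 4.76-fold for Klp59C and at least 9.57-fold for TTLL1B (limma adjusted p = 7.39e-07, 1.42e-10, 2.93e-09 and 6.97e-11). The katanin-like gene kat-60L1 differed by -2.08 (SE 0.10). In the other direction Sas-4 and SAK were higher in comr-labelled arrays than in can by 1.30 (SE 0.16) and 1.05 (SE 0.12) on the log2 scale, while ana3 differed by -1.09 (SE 0.094). With an offset of 64 no centriole gene and no testis ring subunit was called between the mutants. With ribosomal protein or spiked centring no centriole gene, ana3 included, was called lower in comr-labelled arrays than in can. For TTLL6B the order was reversed, with 520 ± 18.2 in control, 326 ± 22.4 in comr-labelled arrays and 191 ± 21.6 in can, a difference of 0.72 (SE 0.090, adjusted p = 2.82e-05) that fell short of 2-fold.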
